A study of Mus musculus with 4 samples.

Results

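The EGR, NR4A and AP-1 immediate-early genes were described in thymus RNA of wild-type mice and of mice lacking Camk2g, with and without the alkylating mutagen N-methyl-N-nitrosourea (MNU). The genes were chosen by symbol from a list of 10, and 7 of them had a row among the 10598 genes of the table: Egr1, Egr2, Nr4a1, Fos, Jun, Junb and Jund. All 7 passed the filter on low values, as did 10587 genes in all. Egr3, Nr4a3 and Fosb were not analysed here.

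The libraries came from thymus of C57BL/6J mice, with 4 groups and 1 library in each, and the sources used here do not say how many animals went into a library. The groups were vehicle-treated wild type, MNU-treated wild type, vehicle-treated CAMKIIgamma-/- (knockout) and MNU-treated CAMKIIgamma-/-. Mice of the MNU groups had received 75 mg/kg by intraperitoneal injection at an age of 4 to 5 weeks, and the treatment time was 6 months in all groups, per the labels. Camk2g encodes the gamma subunit of a calcium/calmodulin-dependent protein kinase, and the study asked how its deletion suppressed T-cell lymphoma induced by MNU. The labels do not describe the deleted allele, and the design text calls the MNU condition malignant. With 1 library per group there was no spread between replicates, so no difference below has a test and whether groups overlap cannot be judged.

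Immediate-early genes are transcribed within minutes of a stimulus, without new protein synthesis. In thymocytes, engagement of the T-cell receptor activates calcium and ERK signals, which act on factors such as SRF, CREB and MEF2 already bound at their promoters. EGR proteins are zinc-finger factors, NR4A proteins are orphan nuclear receptors, and FOS and JUN proteins pair to form the AP-1 factor. Their transcript levels are widely read as a measure of how strongly thymocytes receive receptor signals, but stromal and myeloid cells also express them, and tissue handling can induce them.

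The stretches before the start sites of 4 of these genes are shown because they hold the short motifs through which such signals are known to act, and because Egr2, Nr4a1 and Junb on one side and Fos on the other differed in their levels. The RefSeq promoter table (GRCm38.p6) matched 6 of the 7 genes, all but Egr1. The 250 bases before the start were searched on both strands for the CArG box (the SRF site), the CRE core TGACG, the full CRE TGACGTCA (which contains the core), the AP-1 site TGANTCA and the EGR site GCGNGGGCG. Capitals mark matches. Egr2 lies at chr10:67537619-67537868 (plus strand), Nr4a1 at chr15:101266596-101266845 (plus), Fos at chr12:85473640-85473889 (plus) and Junb at chr8:84978749-84978998 (minus).
Egr2: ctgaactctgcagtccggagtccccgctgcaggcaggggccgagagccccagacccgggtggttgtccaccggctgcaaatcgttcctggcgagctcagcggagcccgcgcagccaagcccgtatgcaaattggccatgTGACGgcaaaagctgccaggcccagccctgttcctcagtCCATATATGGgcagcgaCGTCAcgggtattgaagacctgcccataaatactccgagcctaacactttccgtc
Nr4a1: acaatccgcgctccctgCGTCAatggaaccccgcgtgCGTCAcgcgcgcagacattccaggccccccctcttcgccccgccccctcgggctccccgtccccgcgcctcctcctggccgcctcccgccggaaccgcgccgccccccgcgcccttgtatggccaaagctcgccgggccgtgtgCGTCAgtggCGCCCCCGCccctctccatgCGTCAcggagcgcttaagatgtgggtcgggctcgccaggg
Fos: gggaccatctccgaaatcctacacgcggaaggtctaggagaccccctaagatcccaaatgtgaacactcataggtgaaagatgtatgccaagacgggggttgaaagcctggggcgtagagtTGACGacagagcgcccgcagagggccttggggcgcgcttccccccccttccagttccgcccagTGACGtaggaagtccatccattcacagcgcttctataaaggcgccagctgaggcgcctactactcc
Junb: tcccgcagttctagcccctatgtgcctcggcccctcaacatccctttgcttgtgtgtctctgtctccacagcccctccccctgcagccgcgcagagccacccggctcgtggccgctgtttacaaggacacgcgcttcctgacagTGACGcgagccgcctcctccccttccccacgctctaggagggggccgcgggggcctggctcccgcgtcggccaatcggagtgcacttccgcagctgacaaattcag

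Egr2 held a CArG box that began 72 bases before the start and 2 CRE cores. Nr4a1 held 4 CRE cores and 1 EGR site, Fos 2 CRE cores and Junb 1. No CArG box lay in the windows of Nr4a1, Fos and Junb, and no match of any kind in those of Jun and Jund. This says only that these letters are not in the 250 bases searched, and sites farther from the start were not looked for. Of 32851 windows of the same length in the table, 17.8% held a CRE core, 1.55% a full CRE, 1.47% a CArG box, 6.75% an AP-1 site and 4.70% an EGR site. Egr2 had 5 annotated starts in the table, of which 4 windows held a CArG box, some of them the same box in overlapping windows. The window shown holds no annotated exon of GENCODE M21. Another window without such an exon (chr10:67537316-67537565) is not shown. That window held 1 CArG box and 0 CRE cores, so the CRE cores of Egr2 depend on the start chosen. A match is a description of the sequence and not a measured binding site.

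Library totals ranged from 32911362 to 34836257 normalised counts. Camk2g stood at 2749 normalised counts in vehicle-treated and 3173 in MNU-treated wild type, and at 489 in vehicle-treated and 29.7 in MNU-treated knockout. The knockout libraries thus held 17.8% and 1.08% of the level in vehicle-treated wild type. MNU-treated wild type stood apart, with Spearman's rho across genes (which are not independent replicates) of 0.838 to 0.868 to the other libraries, which had 0.981 to 0.982 among themselves. In vehicle-treated knockout, 42 genes specific to MNU-treated wild type were present at a median of 15.4% of their level there (5th to 95th percentile 13.9% to 18.5%). None of the 7 immediate-early genes was among the 42. With this share subtracted, Camk2g in vehicle-treated knockout came to 1.15. Results for the 7 genes that rest on this library are set beside values with the share subtracted, or with vehicle-treated wild type in its place, where the comparisons are counted below.

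**Figure D1:**
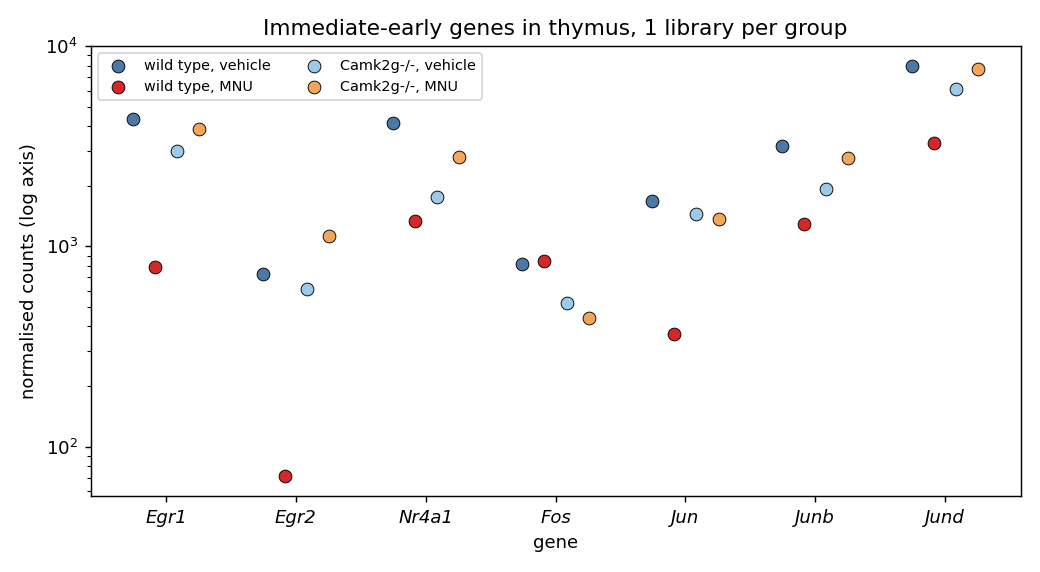
Normalised counts (log axis) of the 7 immediate-early genes, 1 point per library, with colours for the 4 groups. MNU-treated wild type is the lowest point for every gene but Fos, where it is the highest.

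In the EGR family, both measured genes were lowest in MNU-treated wild type. Egr1 stood at 4313 normalised counts in vehicle-treated and 785 in MNU-treated wild type, and at 3008 in vehicle-treated and 3860 in MNU-treated knockout. The 3 libraries other than MNU-treated wild type lay within 1.43-fold of each other. With MNU, Egr1 was 5.49-fold lower in wild type and 1.28-fold higher in knockout. Without MNU it was 1.43-fold lower in knockout than in wild type.

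Egr2, a target of calcineurin and NFAT signals in thymocytes, stood at 731 normalised counts in vehicle-treated and 71.4 in MNU-treated wild type, and at 611 in vehicle-treated and 1127 in MNU-treated knockout. It was the member with the widest range, and it was lowest in MNU-treated wild type and highest in MNU-treated knockout. With MNU it was 10.2-fold lower in wild type and 1.84-fold higher in knockout. With MNU the knockout held 15.8-fold more than the wild type. Against vehicle-treated wild type, MNU-treated knockout was 1.54-fold higher.

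The NAB proteins bind EGR factors and repress their targets, and Nab2 is itself known to be induced by EGR proteins. Nab2 stood at 1893 normalised counts in vehicle-treated and 546 in MNU-treated wild type, and at 1370 in vehicle-treated and 2697 in MNU-treated knockout. Its order over the libraries was that of Egr2, with a 3.46-fold lower level with MNU in wild type and a 1.97-fold higher level in knockout. Nab1 stood at 2186, 2921, 2296 and 2263 in the same order and stayed within 2-fold in each comparison. Its highest library was MNU-treated wild type.

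In the NR4A family, Nr4a1 (Nur77) was the only measured gene, and of the 7 genes it alone differed by more than 2-fold between the vehicle-treated libraries. It stood at 4126 normalised counts in vehicle-treated and 1333 in MNU-treated wild type, and at 1758 in vehicle-treated and 2809 in MNU-treated knockout. Both knockout libraries lay between the wild-type libraries. Without MNU, Nr4a1 was 2.35-fold lower in knockout than in wild type, and 2.25-fold lower with the wild-type MNU share subtracted. Its log2 difference there was -1.23, and 0.264% of all genes had a lower one. With MNU it was 3.10-fold lower in wild type and 1.60-fold higher in knockout. In MNU-treated knockout it was 1.47-fold below vehicle-treated wild type.

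The 3 JUN genes, which can pair with each other or with FOS proteins, were all lowest in MNU-treated wild type. Jun stood at 1696 normalised counts in vehicle-treated and 365 in MNU-treated wild type, and at 1447 in vehicle-treated and 1365 in MNU-treated knockout. The value in MNU-treated wild type was 4.64-fold below that with vehicle, whereas the knockout libraries differed 1.06-fold. Junb, whose protein activates AP-1 sites less strongly than JUN, stood at 3189, 1296, 1941 and 2766 in the same order. It was 2.46-fold lower with MNU in wild type and 1.42-fold higher in knockout. Jund stood at 7932, 3298, 6130 and 7727 in the same order, 2.41-fold lower with MNU in wild type and 1.26-fold higher in knockout. In GENCODE M21, Jun, Junb and Jund are overlapped on the opposite strand by Junos, Prdx2 and Gm11175. The library kit is not said to keep strand, so reads of such pairs could not be told apart.

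In the FOS family, Fos did not share this pattern. Fos stood at 821 normalised counts in vehicle-treated and 842 in MNU-treated wild type, and at 524 in vehicle-treated and 438 in MNU-treated knockout. Both wild-type libraries were above both knockout libraries, and MNU made a difference of 1.03-fold in wild type and 1.19-fold in knockout. With MNU the knockout was 1.92-fold below the wild type, and without MNU 1.57-fold (1.76-fold with the wild-type MNU share subtracted). Neither reached 2-fold. Fosl2, a longer-lived FOS relative outside the 10 symbols, stood at 1065, 646, 1144 and 621 normalised counts in the same order as Fos. Both libraries with MNU were below both without.

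Levels of different genes were compared per kilobase of annotated exon (GENCODE M21, GRCm38, not the authors' build). In vehicle-treated wild type the order of normalised counts per kilobase was Jund (4755), Junb (1386), Nr4a1 (1176), Egr1 (962), Jun (532), Fos (349) and Egr2 (215). In MNU-treated wild type it was Jund (1977), Junb (563), Nr4a1 (380), Fos (358), Egr1 (175), Jun (115) and Egr2 (21.0). Fos thus stood above Egr1 and Jun in that library and below both in the other 3. There is no replicate spread to set against the distance between neighbours in these orders.

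**Figure D2:**
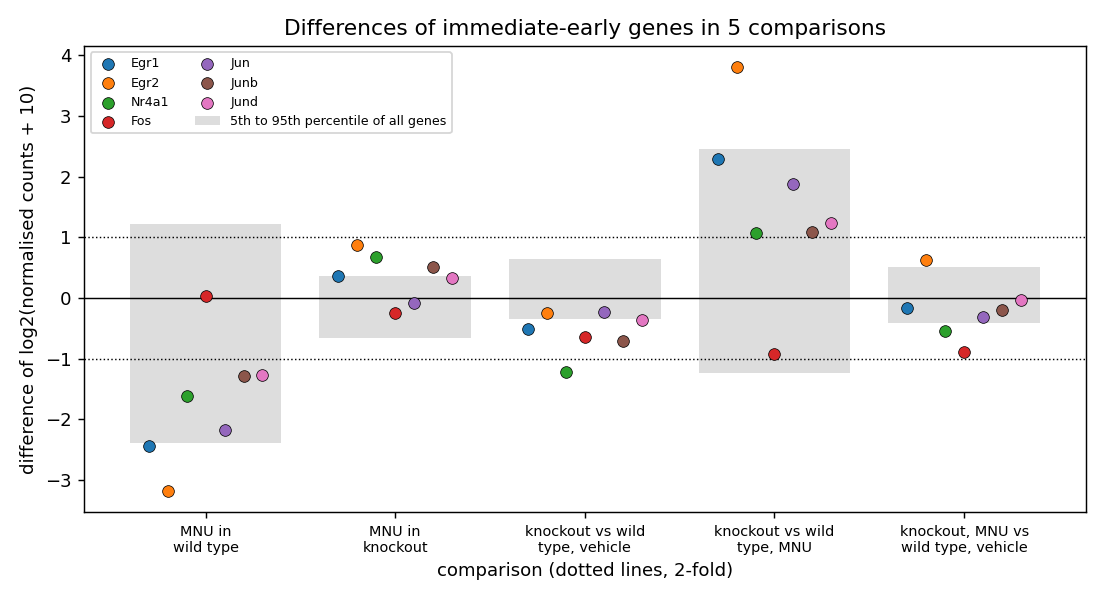
Differences of log2(normalised counts + 10) for the 7 genes in 5 comparisons, 1 point per gene. Grey bars span the 5th to 95th percentile of all 10587 genes and dotted lines mark 2-fold. Only Egr1 and Egr2 lie below the bar for MNU in wild type, and all but Egr2 and Jun lie below it for knockout against wild type, both with vehicle.

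Counted over the 7 genes, 6 were at least 2-fold lower with MNU in wild type (all but Fos) and 0 higher. Among all genes tested, 14.2% were lower and 7.14% higher by the same rule, which uses differences of log2(value + 10). The median log2 difference was -1.62 for the 7 genes and -0.01 for all genes. The 6 differences ran from -3.19 (Egr2) to -1.26 (Jund). The counts describe these libraries, and nothing is read from them about the conditions.

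In knockout, 0 of the 7 genes differed by 2-fold with MNU, where 0.331% of all genes were higher and 2.95% lower. Their median log2 difference was 0.36, beside 0.01 for all genes, and the values ran from -0.25 (Fos) to 0.87 (Egr2). Egr1, Egr2, Nr4a1, Junb and Jund had values above 0. With vehicle-treated wild type in place of vehicle-treated knockout the median was -0.20, and of these 5 genes only Egr2 was still above 0. The sign of the knockout change in Egr1, Nr4a1, Junb and Jund therefore rested on the library without MNU.

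Without MNU, 1 of the 7 genes (Nr4a1) was at least 2-fold lower in knockout than in wild type and 0 were higher. Of all genes, 0.359% were lower and 2.59% higher. With the share of MNU-treated wild type subtracted, the count was again 1 gene. All 7 genes had lower values in the knockout library, with log2 differences from -1.23 (Nr4a1) to -0.23 (Jun) and a median of -0.52, and 50.1% of all genes had values below 0. After subtraction of the MNU-treated wild-type share the differences of Egr2 (-0.04) and Jun (-0.05) came near 0 and those of Egr1 (-0.34) and Jund (-0.26) shrank, while Junb (-0.63) and Nr4a1 (-1.16) kept most of theirs and that of Fos (-0.80) was larger. This comparison and that of MNU in knockout share the knockout library without MNU.

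With MNU, 6 of the 7 genes were at least 2-fold higher in knockout than in wild type and 0 lower, beside 15% and 7.37% of all genes. The folds ran from 2.11 (Nr4a1) to 15.8 (Egr2), with 4.92 for Egr1, 3.74 for Jun, 2.34 for Jund and 2.13 for Junb. This comparison shares the wild-type library with MNU with that of MNU in wild type, so the 6 genes are not a separate observation. MNU-treated knockout set against vehicle-treated wild type gave 0 of 7 genes beyond 2-fold, where 1.57% of all genes were higher and 1.11% lower. The nearest to 2-fold were Fos, with a log2 difference of -0.89, and Egr2 with 0.62.

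The MNU change in knockout minus that in wild type was 2 or more on the log2 scale for 4 of the 7 genes and 6.62% of all genes. The values were 4.06 for Egr2, 2.80 for Egr1, 2.30 for Nr4a1, 2.10 for Jun, 1.80 for Junb, 1.60 for Jund and -0.29 for Fos. With the share of MNU-treated wild type subtracted from vehicle-treated knockout they were 3.85, 2.62, 2.23, 1.92, 1.72, 1.48 and -0.12 in the same order, so that Jun no longer reached 2.

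The members did not move in a fixed ratio to each other. The ratio of Fos to Jun normalised counts was 0.484 in vehicle-treated wild type, 2.31 in MNU-treated wild type, 0.362 in vehicle-treated knockout and 0.321 in MNU-treated knockout. It was thus 4.76-fold higher with MNU in wild type. The ratio of Egr2 to Egr1 was 0.169, 0.0910, 0.203 and 0.292 in the same order, lowest in MNU-treated wild type and highest in MNU-treated knockout. The ratio of Nr4a1 to Egr1 was 0.957, 1.70, 0.584 and 0.728, so that Nr4a1 was lower relative to Egr1 in both knockout libraries. These ratios depend on gene length, and only their change between libraries can be read.

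The genes with the most similar profiles were found by the distance between log2 levels over the 4 libraries, each profile centred on its mean, among 9715 other genes. For Egr1 they were Inadl (0.11), Lypd6b (0.11) and Arap2 (0.13), and Jun ranked 58. For Nr4a1 they were Xkrx (0.25), Sertad1 (0.28) and Chrna9 (0.30), with Junb at rank 7 and Jund at rank 90. For Fos they were Rasl11b (0.07), Rasgrp4 (0.11) and Tmem20 (0.22), and its nearest member of the 7 was Junb at rank 7868. With 4 libraries many genes share a profile, and likeness here is only of these values.

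Genes upstream of the immediate-early genes were mostly within 2-fold with MNU in wild type, where 7.14% of all genes were higher and 14.2% lower. Of 18 measured genes from RAS activation to the ERK-activated kinases, 1 was lower and 1 higher, with a median log2 difference of -0.10. Rasgrp1, the exchange factor that links diacylglycerol to RAS in thymocytes, stood at 20174 normalised counts without and 7825 with MNU, and Rps6ka5, a kinase of CREB and histone H3, at 1185 and 2652. Of 10 calcineurin and NFAT genes 2 were lower and 0 higher (median -0.14). These were Ppp3ca, the calcineurin catalytic subunit (1167 and 382), and Nfat5 (7849 and 3218). The ERK1 gene Mapk3 (2181 and 1401) and the calcineurin regulator Rcan3 (1177 and 730) stayed within 2-fold. Of 18 SRF, TCF, CREB and MEF2 factors and cofactors, 2 were higher and 2 lower, with a median of 0.03. Mef2b stood at 83.3 and 489, the CREB coactivator Crtc3 at 1948 and 5364, and Hdac5, a MEF2 repressor, at 1992 and 500.0. The fourth was the TCF factor Elk3 (2532 and 1168), named after its value was seen. In knockout 0 genes of these 3 lists differed by 2-fold with MNU, where 0.331% of all genes were higher and 2.95% lower. With the share subtracted 1 did (Mef2b, with a log2 difference of 1.28), beside 0.397% of all genes higher.

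Among 12 other proteins that pair within AP-1 or related dimers, 2 were higher and 2 lower with MNU in wild type (median -0.39). Of all genes 7.14% were higher and 14.2% lower. Jdp2, which dimerises with JUN and represses AP-1, stood at 239 normalised counts in vehicle-treated and 3345 in MNU-treated wild type, and at 920 in vehicle-treated and 291 in MNU-treated knockout. It was 14-fold higher with MNU in wild type. The level in vehicle-treated knockout was 479 with the wild-type MNU share subtracted. Atf3, a stress-induced AP-1 partner, stood at 343, 85.4, 212 and 201 in the same order. Batf3, named after its value was seen, stood at 128, 51.9, 158 and 254.

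Other immediate-early genes and the genes that damp ERK signals were counted in the same comparison, in which all genes too were more often lower (14.2%) than higher (7.14%). Of 34 other immediate-early genes 13 were lower and 2 higher (median -0.67), and of 10 ERK feedback genes 5 were lower and 2 higher (median -1.04). Dusp4, a nuclear phosphatase of ERK, stood at 780 normalised counts in vehicle-treated and 108 in MNU-treated wild type, and at 500.2 in vehicle-treated and 630.2 in MNU-treated knockout. Dusp6, the cytoplasmic ERK phosphatase, stood at 1906, 610, 1854 and 1814 in the same order, and Spred1, an inhibitor of RAS to RAF signalling, at 1095, 352, 1017 and 1070. Both were low only in MNU-treated wild type among these 4 libraries. Zfp36l1, which destabilises mRNA, stood at 7637, 1751, 6139 and 7490, and Gadd45b, a stress and NF-kB target, at 569, 143, 439 and 764. Cyr61, a matricellular SRF target, was low in both MNU-treated libraries, at 1039, 150.5, 407 and 131.8.

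The 2 feedback genes that were higher were Dusp10, mainly a phosphatase of p38 and JNK (2674 without and 6067 with MNU) and Spry1 (486 and 1380), and the 2 immediate-early genes were Sgk1 (1766 and 4162) and Socs3 (1000 and 2461). These were named after their values were seen. Without MNU, 1 of the 10 feedback genes was at least 2-fold lower in knockout than in wild type and 0 were higher. Of all genes 0.359% were lower and 2.59% higher in that comparison. The lower gene was Dusp5, an ERK phosphatase also named after its value was seen, at 872 in wild type and 364 in knockout.

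Genes linked to T-cell receptor signal strength and thymocyte selection had 19 of 36 members lower and 4 higher with MNU in wild type (median -1.09). Of all genes 14.2% were lower and 7.14% higher. In knockout 0 of 36 differed by 2-fold (median 0.31), where 2.95% of all genes were lower and 0.331% higher. Cd69, an early activation antigen of positively selected thymocytes, stood at 1980 normalised counts in vehicle-treated and 41.7 in MNU-treated wild type, and at 1663 in vehicle-treated and 1751 in MNU-treated knockout. Ccr7, which guides selected thymocytes to the medulla, stood at 2829, 41.7, 2195 and 3172 in the same order, and Gimap3, a survival GTPase of mature T cells, at 2234, 47.3, 3974 and 5014. For all 3 genes MNU-treated wild type was the lowest library by far. The 4 higher genes, named after their values were seen, were Il2ra (2661 and 10124), Runx3 (1003 and 3409), Bcl2l11 (3066 and 8652) and Ptpn22 (4173 and 10802).

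Heat shock and tissue stress genes can rise with tissue handling together with Fos and Jun. Of 19 measured, 4 were lower and 3 higher with MNU in wild type (median -0.28), beside 14.2% and 7.14% of all genes. Hspa1a stood at 802, 153, 1051 and 988 normalised counts in vehicle-treated wild type, MNU-treated wild type, vehicle-treated knockout and MNU-treated knockout, and its near-identical copy Hspa1b at 942, 157, 1319 and 1170. Reads can be shared between these copies. The haem oxygenase Hmox1 stood at 640, 6208, 1648 and 1092. The part of tissue handling in the levels of the 7 genes was not tested.

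**Figure D3:**
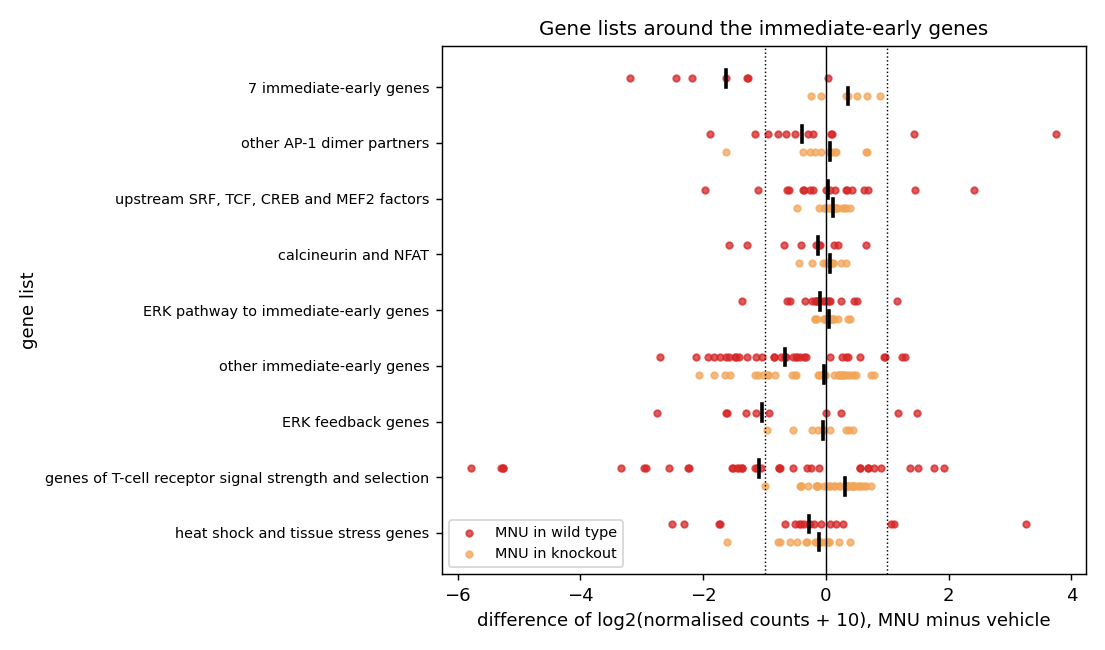
Difference of log2(normalised counts + 10) with MNU, 1 point per gene, for the 7 genes and 8 lists around them, in wild type (red) and knockout (orange), with black bars at the medians and dotted lines at 2-fold. Genes of T-cell receptor signal strength have a median of -1.09 in wild type and 0.31 in knockout.

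Markers of several cell types moved with the immediate-early genes. In MNU-treated wild type, the summed level of 12 double-positive thymocyte markers was 41.8% of that in vehicle-treated wild type. Of the 12, 7 were at least 2-fold lower and 1 higher, beside 14.2% and 7.14% of all genes. For 10 mature T cell markers the sum was 29.9%, with 8 lower, and for 6 dendritic cell and MHC class II markers 3.97%, with 6 lower. For 11 thymic epithelial markers it was 1.51%, with 9 lower and 1 listed at 0, so the defining epithelial markers of thymus were near absent in that library. Of 8 adipocyte markers 7 were lower, and their sum was 20.5%. Higher sums were those of 5 neutrophil markers at 378%, with 4 higher, and 8 fibroblast markers at 285%, with 5 higher and 1 lower. That of 8 macrophage markers was 175%, with 3 higher. The sum of 6 B cell markers was 68.4%, with 4 lower and 1 higher. For 4 erythroid markers it was 61.4% and for 4 endothelial markers 109%, with 0 beyond 2-fold in either list. In bulk tissue, fewer cells of a type and less RNA per cell cannot be told apart, and the part of these cell types in the lower EGR, NR4A and JUN levels was not tested.

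In the knockout libraries the thymocyte, T cell and epithelial sums stayed nearer to vehicle-treated wild type, and that of macrophage markers was 159% with vehicle and 189% with MNU. The neutrophil sum was 98.4% with vehicle and 338% with MNU, so it was high in both MNU-treated libraries. Of these 5 markers, 4 were at least 2-fold higher with MNU in knockout, beside 0.331% of all genes. B cell markers stood at 158% without and 263% with MNU, and erythroid markers at 33.9% and 72.2%. All 4 erythroid markers were at least 2-fold lower in vehicle-treated knockout than in vehicle-treated wild type, beside 0.359% of all genes. Double-positive thymocyte markers stood at 69.4% without and 87.0% with MNU, mature T cell markers at 114% and 136%, and thymic epithelial markers at 105% and 81.4%. The double-positive thymocyte sum was thus lower in vehicle-treated knockout, the library in which Nr4a1 was 2.35-fold and Junb 1.64-fold below vehicle-treated wild type. The part of thymocyte number in that difference was not tested. From the marker values of vehicle-treated knockout the share of MNU-treated wild type was not subtracted.

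**Figure D4:**
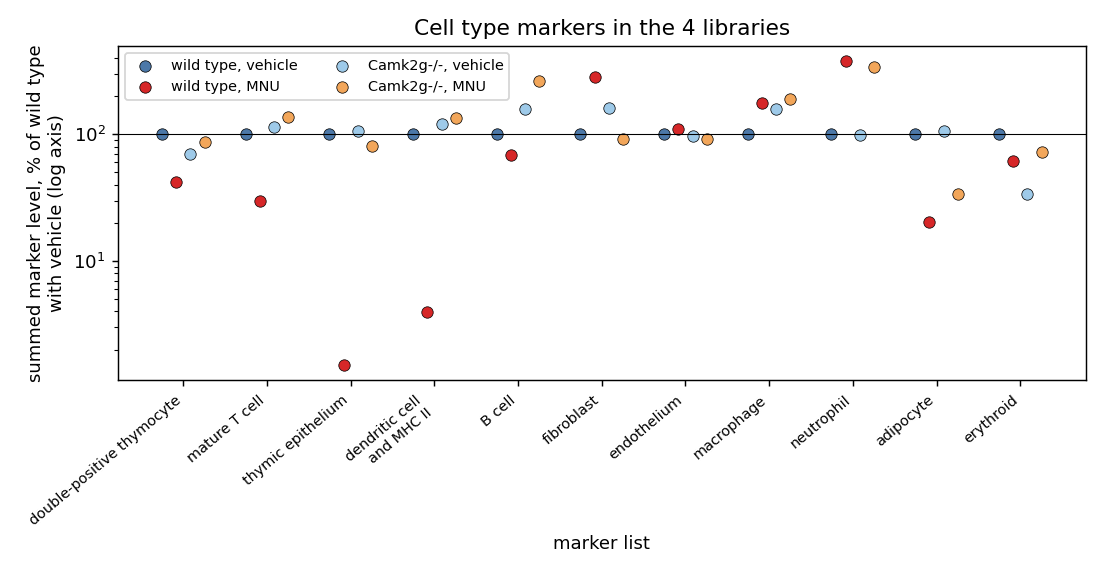
Summed level of each marker list as a percentage of vehicle-treated wild type (log axis), 1 point per library. In MNU-treated wild type, thymic epithelial markers are at 1.51% and double-positive thymocyte markers at 41.8%, while fibroblast markers are at 285%.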

How the data were processed

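RNA of 4 thymus libraries, prepared with a TruSeq kit per the labels' protocols, was sequenced. The submitters' processing notes name mm9 as genome build and TopHat2 2.0.8b and edgeR as tools, but not what each tool did. Not given in the sources used here were the read counter, its gene annotation and any filter on genes. The deposited signal is called normalised counts per the file headers. Its values are not whole and the way the authors normalised them is not stated, so no count model and no counting intervals were used.

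Groups were taken from the labels. Genes with a mean of at least 10 were kept, which removed 11, and 10 was added before the log2 (Python 3.11.15, pandas 2.3.3). Fold differences of single genes are ratios of normalised counts. A gene counts as higher or lower from 2-fold on log2(value + 10), a scale that shrinks differences of low genes. With 1 library per group no test was made. The rule of size was tested on simulated counts without spread between animals, so that test cannot show how often the rule errs in these libraries. The members, lists, marker lists and alternatives were chosen with earlier results of these data known. Named genes were the members, their measured family relatives, 3 genes per other list with the largest difference for MNU in wild type (higher library at least 100), and the 3 nearest profiles of Egr1, Nr4a1 and Fos. A gene that this rule or a count covers is not reported here. The list entries Helios, Msk1 and Adgre1 or Emr1 are further names of genes already listed. The subtracted share was the median over genes above 1000 in MNU-treated wild type that exceeded vehicle-treated wild type and MNU-treated knockout by more than 20-fold. The alternatives were other pseudocounts, filters, scalings and thresholds, this subtraction, and vehicle-treated wild type as reference for the knockout. Applying these last alternatives to genes and lists other than the 7 was chosen after seeing the data.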

Additional observations from a re-analysis of the deposited data

Results flagged for a closer look

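For 3 of the 7 immediate-early genes the MNU change had opposite signs in wild type and knockout and differed by 2 or more on the log2 scale (knockout minus wild type): Egr2 by 4.06, Egr1 by 2.80 and Nr4a1 by 2.30. Of all genes 7.65% met both conditions, in either direction. Among related genes the same held for the EGR corepressor Nab2 (2.75), for Dusp4 (3.07), Zfp36l1 (2.40), Gadd45b (2.71) and Hdac5 (2.27), and for Cd69 (5.34), Ccr7 (6.31) and Gimap3 (5.63). Jdp2 (-5.38) and Hmox1 (-3.85) were higher with MNU in wild type and lower in knockout, as were Il2ra (-2.91), Zfp36l2 (-2.79), Spry1 (-2.45), Ctgf (-2.34), Sgk1 (-2.18) and Runx3 (-2.16), which were named after their values were seen. Of these 19 genes, 17 kept opposite signs with the share of MNU-treated wild type subtracted from vehicle-treated knockout, all but Cd69 (-0.16 in knockout) and Hmox1 (0.41 in knockout). Among the 17, Runx3 then had a difference of -1.82 and no longer met the condition on size. With vehicle-treated wild type as the reference of the knockout, 11 kept opposite signs. Those that lost them, with their log2 difference in knockout, were Egr1 (-0.16), Nr4a1 (-0.55), Dusp4 (-0.30), Zfp36l1 (-0.03), Cd69 (-0.18), Jdp2 (0.27), Hmox1 (0.76) and Runx3 (0.23), so that of Egr1, Egr2 and Nr4a1 only Egr2 kept its opposite sign. The 19 genes were flagged by their opposite signs, and the share of all genes that kept such signs was not computed. With 1 library per group none of these differences was tested.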

How the results depend on the processing

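No paired analysis was possible because each group had 1 library. Under the pseudocounts, filters and scalings tried, and after subtraction of the share of MNU-treated wild type, the counts of the 7 genes beyond 2-fold stayed within 1.5 times in each of the 5 comparisons, and the 2 scalings moved the median of all genes by less than 0.1 on the log2 scale. The log2 difference with MNU in wild type ranged from -3.31 to -2.79 for Egr2 and from -1.66 to -1.60 for Nr4a1. At a 1.5-fold threshold the counts were 2 genes higher with MNU in knockout (Egr2 and Nr4a1, beside 1.45% of all genes), 3 lower in vehicle-treated knockout (Nr4a1, Junb and Fos, beside 1.49%) and 1 lower in MNU-treated knockout (Fos, beside 17.1%). They were 1 higher (Egr2, beside 4.09%) and 1 lower (Fos, beside 2.83%) in MNU-treated knockout against wild type without. At a 4-fold threshold 3 genes were lower with MNU in wild type (Egr1, Egr2 and Jun, beside 6.48% of all genes), 2 were higher in MNU-treated knockout (Egr1 and Egr2, beside 6.84%) and 0 lower in vehicle-treated knockout (beside 0.0378%), and the medians of -1.62 and 1.23 no longer reached the threshold. With vehicle-treated wild type in place of vehicle-treated knockout, the median for MNU in knockout was -0.20. The precision of each value is limited by the single library per group, and the read depth behind the normalised values is unknown.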

Other observations

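A group of other immediate-early genes was lower in MNU-treated knockout, where the 7 EGR, NR4A and AP-1 genes were within 2-fold. Of the 34 measured, 7 were at least 2-fold lower there with MNU: Zfp36l2, Klf4, Dusp1, Cyr61, Ctgf, Rhob and Errfi1, all but Cyr61 named after their values were seen. Of all genes 2.95% were lower in that comparison. With the share of MNU-treated wild type subtracted from vehicle-treated knockout, the count was 7 and the share of all genes 1.87%. Zfp36l2, an mRNA decay factor that limits thymocyte cycling, stood at 24323 normalised counts in vehicle-treated and 47252 in MNU-treated wild type, and at 27968 in vehicle-treated and 7847 in MNU-treated knockout. It was thus highest in MNU-treated wild type and lowest in MNU-treated knockout. Dusp1, a stress-induced phosphatase of JNK and p38, stood at 2161, 1722, 1936 and 862 in the same order. Cyr61 and Ctgf, matricellular targets of YAP and SRF, stood at 1039, 150.5, 407 and 131.8, and at 304, 368, 445 and 98.1. Errfi1, a feedback inhibitor of the EGF receptor, stood at 1745, 1114, 2671 and 847. Against vehicle-treated wild type, 5 of the 34 were lower in MNU-treated knockout, beside 1.11% of all genes. Adipocyte markers moved with them, at 33.9% of vehicle-treated wild type in MNU-treated knockout and 106% in vehicle-treated knockout. They were also low, at 20.5%, in MNU-treated wild type. Of the 7 genes lower in MNU-treated knockout, only Cyr61 and Rhob were at least 2-fold lower with MNU in wild type. Klf4, Dusp1 and Errfi1 were lower by less than 2-fold there, and Zfp36l2 and Ctgf were not lower. Fibroblast markers stood at 160% in vehicle-treated and 91.2% in MNU-treated knockout, with 3 of 8 at least 2-fold lower. They stood at 285% in MNU-treated wild type, whose share in vehicle-treated knockout was not subtracted from the marker values. The part of either cell type was not tested.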
